A study of Mus musculus with 4 samples.

Results

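The genes described here are 9 transcription factor genes that steer T cells toward a cytotoxic or a helper fate: the T-box genes Tbx21 and Eomes, the Runx genes Runx1, Runx2 and Runx3 with their shared partner Cbfb, Zbtb7b, Gata3 and Bcl11b. They were taken by name from a list written for this work, with earlier results of these data known. All 9 were found among the 19339 genes with a value in each library. The RNA came from TCRβ+CD8αα+ intraepithelial lymphocytes (IELs), T cells that sit among the epithelial cells of the small intestine, sorted from C57BL/6 mice as CD45+CD4−TCRβ+CD8α+CD8β− cells. Control mice were Kdm6b fl/fl, with loxP sites in Kdm6b, the gene of a demethylase that removes methyl groups from lysine 27 of histone H3 (H3K27). The other group was Kdm6b fl/fl-CD4Cre, in which Cre driven by the Cd4 promoter deletes Kdm6b in developing T cells, CD4+ and CD8+ alike. Both groups carried the floxed alleles, and the labels give neither an age nor a treatment. RNA of 3 mice was pooled for each library, and the 4 libraries used here were the replicates numbered 1 and 3 of each group.

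T-bet (Tbx21) and Eomes are related activators of cytotoxic and IFN-γ genes, and T-bet is known as a factor that TCRαβ+CD8αα+ IELs need. The 3 Runx proteins bind DNA as dimers with CBFβ, which has no DNA contacts of its own, and Runx3 is known for silencing Cd4 and for the CD8 lineage program. ThPOK, the product of Zbtb7b, directs the helper lineage and restrains Runx3, while Runx complexes in turn hold Zbtb7b silent in CD8 lineage cells. GATA3 acts upstream of ThPOK in helper cells and supports T cell development in general, and Bcl11b commits thymic progenitors to the T lineage.

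The promoters of Runx3, Zbtb7b and Tbx21 are shown because the levels of Runx3 and the balance of Runx3 with the other factors carry most of what follows, and because the study designed a chromatin immunoprecipitation amplicon at Tbx21. Each window holds the 250 bases before a RefSeq start (GRCm38.p6), written 5′ to 3′ on the strand of the gene. In the Runx3 and Zbtb7b windows capitals mark a Runx motif, TGTGGT, on either strand, so that ACCACA is the same motif on the other strand. In the Tbx21 window capitals mark the sites of the study's chromatin immunoprecipitation primer pair, which spans 98 bases from 107 bases before the start.
Runx3 distal promoter, chr4:135120395-135120644, plus strand: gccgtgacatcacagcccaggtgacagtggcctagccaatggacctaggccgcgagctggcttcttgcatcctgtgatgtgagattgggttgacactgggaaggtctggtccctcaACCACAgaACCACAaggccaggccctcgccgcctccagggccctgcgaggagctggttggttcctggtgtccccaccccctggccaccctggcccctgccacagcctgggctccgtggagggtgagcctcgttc
Runx3 proximal promoter, chr4:135152295-135152544, plus strand: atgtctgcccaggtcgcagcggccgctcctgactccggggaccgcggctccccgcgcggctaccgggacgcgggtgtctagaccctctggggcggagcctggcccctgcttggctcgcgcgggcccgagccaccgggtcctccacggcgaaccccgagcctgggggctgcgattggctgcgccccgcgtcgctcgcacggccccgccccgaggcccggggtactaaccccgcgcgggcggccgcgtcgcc
Zbtb7b upstream promoter, chr3:89393379-89393628, minus strand: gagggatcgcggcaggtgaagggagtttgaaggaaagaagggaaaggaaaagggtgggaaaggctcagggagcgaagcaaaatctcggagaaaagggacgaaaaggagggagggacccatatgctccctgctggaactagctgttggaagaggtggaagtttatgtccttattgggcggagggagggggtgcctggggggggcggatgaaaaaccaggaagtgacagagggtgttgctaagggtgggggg
Zbtb7b downstream promoter, chr3:89387672-89387921, minus strand: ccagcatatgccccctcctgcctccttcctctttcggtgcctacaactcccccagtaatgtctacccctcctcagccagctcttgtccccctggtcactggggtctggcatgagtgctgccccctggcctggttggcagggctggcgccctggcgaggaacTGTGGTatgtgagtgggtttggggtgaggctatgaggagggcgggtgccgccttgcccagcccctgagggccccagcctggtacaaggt
Tbx21 promoter, chr11:97115332-97115581, minus strand: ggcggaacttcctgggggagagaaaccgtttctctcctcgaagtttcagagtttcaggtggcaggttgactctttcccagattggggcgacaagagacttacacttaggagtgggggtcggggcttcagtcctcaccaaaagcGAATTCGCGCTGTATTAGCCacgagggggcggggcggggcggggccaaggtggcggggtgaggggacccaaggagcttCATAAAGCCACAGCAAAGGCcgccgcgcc

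The distal Runx3 window held 2 matches to the Runx motif, 134 and 126 bases before the start, and the proximal window held none. A single match lay 89 bases before the downstream start of Zbtb7b. Over the 12 promoter windows of the 9 genes, 3 held a Runx motif, against 14.0% of the 32851 promoters of the same length. The T-box motif TCACAC was in 2 of the 12 (Runx2 and Bcl11b) against 12.3% of all promoters, and the GATA motif AGATAA was in 0 of 12 against 9.99%. CpG dinucleotides were more frequent than the median of 6 per promoter in 9 of the 12 windows, with 38 at the proximal Runx3 promoter, 8 at the distal one and 16 at Tbx21. A motif match describes letters in a window and not binding.

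Before the members, the libraries themselves differed. Kdm6b had 16.5 and 16.0 FPKM in control replicates 1 and 3 (fragments per unit of transcript length, relative to all fragments mapped in that library), then 18.2 in the library labelled Kdm6b-deficient replicate 1 and 11.1 in the library labelled Kdm6b-deficient replicate 3, so Kdm6b RNA was not lower in the first of these. FPKM of the whole gene does not separate a deleted exon from the rest. Each directional statement below therefore refers to the libraries by their labels. Depth is known only relative to control replicate 1, at 0.837 to 1.02. T cell marker RNA was present in every library, but its level, as the geometric mean of Cd3d, Cd3e, Cd3g, Cd247 and Ptprc, was 437 and 362 FPKM in the controls and 363 and 242 in the libraries labelled Kdm6b-deficient. All 22 of the 22 epithelial markers examined were detected in each library, and their summed level was 2026 and 5828 FPKM in the controls and 7430 and 10570 in the libraries labelled Kdm6b-deficient. Reg3g alone gave 3970 of the 7430, and without it the 4 sums were 1245 and 3853 in the controls and 3456 and 9484 in the libraries labelled Kdm6b-deficient, so that replicate 1 of the latter then lay below control replicate 3. In such bulk RNA, fewer cells of a type and less RNA per cell cannot be told apart.

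FPKM is scaled to transcript length, so the levels of the 9 genes can be set side by side. In both controls the order began with Runx3, Tbx21, Gata3 and Cbfb, and in both libraries labelled Kdm6b-deficient Tbx21 came first and Runx3 second, with Gata3 and Cbfb again next. Bcl11b, Runx1, Runx2 and Zbtb7b followed at 1.72 to 9.07 FPKM, in an order that changed between libraries and with ranges that overlapped. Eomes came last in all 4 libraries. Tbx21 lay at the 91.5 percentile of the mean level of all listed genes and Eomes at the 22.4 percentile.

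**Figure D1:**
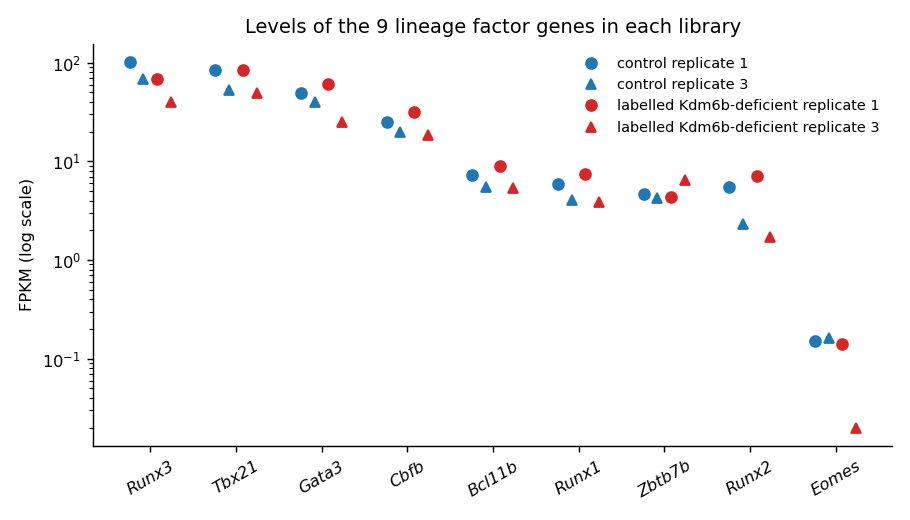
FPKM on a log axis for the 9 genes, ordered by their mean, with a symbol for each library (blue for control, red for the libraries labelled Kdm6b-deficient, circles for replicate 1, triangles for replicate 3). The triangles lie below the circles of the same colour except for the red pair of Zbtb7b and the blue pair of Eomes, and the 2 red symbols of Runx3 lie below both blue ones.

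Each of the 9 genes was then compared between the groups with limma on log2(FPKM + 1), a scale that understates changes of low genes. Of the genes, 12009 reached the minimum for the test, 1 FPKM in at least 2 libraries. Among them 0 (0%) had an adjusted p under 0.05, with 642 (5.35%) under an unadjusted p of 0.05. Of the 9 members 8 entered the test, and none had an adjusted or unadjusted p under 0.05. Of the 8, 0 had a log2 fold change beyond 1 in either direction, against 6.64% of all tested genes. Their log2 fold changes were negative for 3 and positive for 5, with a median of 0.06 against 0.00 for all tested genes. Whether the pools of a group came from separate experiments is not stated, so these p-values measure the spread between pools.

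Tbx21 (Entrez 57765, GRCm38.p6 chr11:97098007-97115331) RNA was 84.1 and 53.0 FPKM in control replicates 1 and 3, against 84.2 and 49.0 in the libraries labelled Kdm6b-deficient replicates 1 and 3. The group means were 68.6 ± 22.0 and 66.6 ± 24.9 FPKM (SD, n = 2 each), and within each group replicate 1 stood well above replicate 3. The log2 fold change was −0.06 (SE 0.345, limma adjusted p = 0.974). The amplicon shown above lies at this gene's promoter, for which no chromatin data were analysed here. From RNA-seq and RT-qPCR, the study reported Tbx21, Runx3 and Thpok as unaltered between its groups.

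Eomes (Entrez 13813, chr9:118478186-118486132) RNA was 0.15 and 0.16 FPKM in the controls and 0.14 and 0.02 in the libraries labelled Kdm6b-deficient. From the size of the smallest steps in FPKM these values stand for roughly 6.4, 6.8, 6.0 and 0.71 fragments, so a difference was not detectable at this depth. Eomes did not reach the minimum level for the test. The ratio of Tbx21 to Eomes was 561 and 331 in the controls and 601 and 2450 in the libraries labelled Kdm6b-deficient, and the last of these rests on about 1 fragment. Tbx21 was by far the higher of the 2 T-box genes in every library.

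Runx3 (Entrez 12399, chr4:135120645-135177990) RNA was 101 and 69.1 FPKM in control replicates 1 and 3, against 67.6 and 40.3 in the libraries labelled Kdm6b-deficient replicates 1 and 3. The group means were 85.1 ± 22.6 and 54.0 ± 19.3 FPKM (SD, n = 2 each). Runx3 was the only tested member whose groups did not overlap, a pattern that 18.6% of all tested genes showed in the same direction, and 0 members had both libraries labelled Kdm6b-deficient above both controls, against 18.4%. The margin was narrow, since the higher library labelled Kdm6b-deficient lay 0.03 below the lower control on the log2 scale. The log2 fold change was −0.67 (SE 0.319, limma adjusted p = 0.755), at the 2.08 percentile of all tested genes. Between libraries of the same number the difference was −0.57 for replicate 1 and −0.76 for replicate 3, while the 2 controls differed from each other by 0.54. Without the library labelled Kdm6b-deficient replicate 3 the log2 fold change was −0.30, and without control replicate 1 it was −0.40. Leaving out the library labelled Kdm6b-deficient replicate 1 gave −1.04, again without a call. With the replicate number as a block limma called Runx3 (SE 0.15, adjusted p = 0.0201) and no other member. This blocked fit, which also gives the contrast of replicate numbers below, leaves 1 residual degree of freedom per gene. Its standard errors therefore lean on the spread shared over all genes. Scaled to T cell genes as well, the blocked log2 fold change of Runx3 was −0.25 (limma adjusted p = 0.364), so the call was lost. Without that scaling the blocked model called 1019 (8.49%) of the tested genes, 133 (1.11%) lower and 886 (7.38%) higher, and the labels do not say that equal numbers mark pools prepared together.

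The other Runx genes did not share this order. Runx1 (Entrez 12394, chr16:92601466-92826074) had 5.92 and 4.09 FPKM in the controls and 7.48 and 3.89 in the libraries labelled Kdm6b-deficient, with a log2 fold change of 0.12 (SE 0.388, limma adjusted p = 0.951). Runx2 (Entrez 12393, chr17:44495987-44814797), best known for bone formation, had 5.55 and 2.34 FPKM in the controls and 7.06 and 1.72 in the libraries labelled Kdm6b-deficient, with a log2 fold change of 0.00 (SE 0.626, limma adjusted p = 0.999). For both genes the library labelled Kdm6b-deficient replicate 1 was the highest of the 4 and the library labelled Kdm6b-deficient replicate 3 the lowest. Cbfb (Entrez 12400, chr8:105170674-105217989), the partner that all 3 Runx proteins need, had 24.8 and 19.6 FPKM in the controls and 31.6 and 18.3 in the libraries labelled Kdm6b-deficient. Its log2 fold change was 0.12 (SE 0.313, limma adjusted p = 0.932), and its libraries took the same order.

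Zbtb7b (Entrez 22724, chr3:89377644-89393673) had 4.65 and 4.20 FPKM in the controls and 4.38 and 6.52 in the libraries labelled Kdm6b-deficient. It was the member with the most positive log2 fold change, 0.23 (SE 0.316, limma adjusted p = 0.861), and this rested on the library labelled Kdm6b-deficient replicate 3, without which the value was −0.01. Gata3 (Entrez 14462, chr2:9857078-9887953) had 49.0 and 40.1 FPKM in the controls and 60.2 and 24.9 in the libraries labelled Kdm6b-deficient. These 2 libraries lay above and below both controls, and the log2 fold change was −0.19 (SE 0.419, limma adjusted p = 0.92). Bcl11b (Entrez 58208, chr12:107910403-108004145) had 7.31 and 5.53 FPKM in the controls and 9.07 and 5.34 in the libraries labelled Kdm6b-deficient, with a log2 fold change of 0.12 (SE 0.347, limma adjusted p = 0.943). Antisense transcripts overlap Eomes, Runx1, Runx2, Zbtb7b and Gata3 in the annotation, a coding gene on the same strand also overlaps Gata3, and the sources used here do not state whether fragments were assigned by strand.

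**Figure D2:**
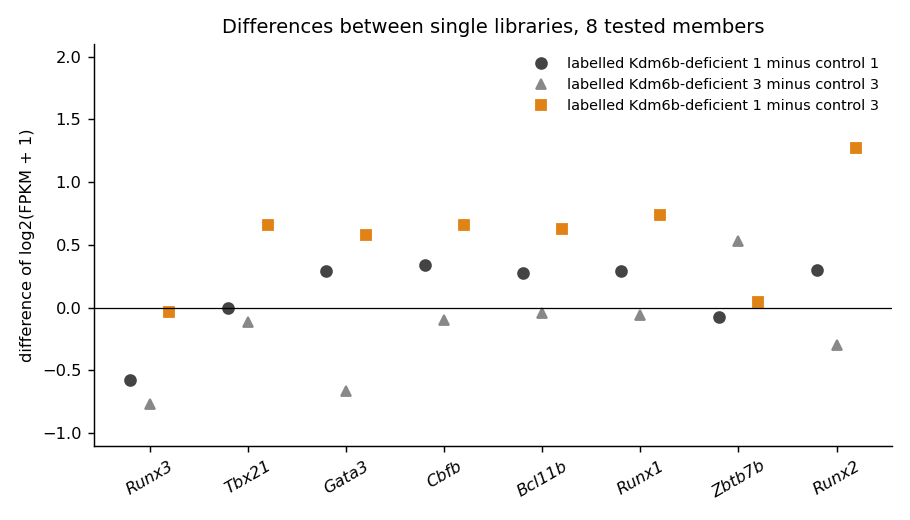
Differences of log2(FPKM + 1) between single libraries for the 8 tested members, as the library labelled Kdm6b-deficient replicate 1 minus control replicate 1 (circles), replicate 3 minus replicate 3 (triangles) and the library labelled Kdm6b-deficient replicate 1 minus control replicate 3 (squares). All 3 symbols of Runx3 lie below 0, the square at −0.03, whereas Tbx21, Gata3, Cbfb, Bcl11b, Runx1 and Runx2 have a circle at or above 0, a square above it and a triangle below it.

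For 6 of the 8 tested members the difference between the replicate numbers was in size above the difference between the groups, Runx3 and Zbtb7b being the exceptions, though the sizes were not tested against each other. With group in the model, the contrast of the libraries numbered 1 with those numbered 3 called 1364 (11.4%) of the 12009 genes at an adjusted p under 0.05 in limma, 398 (3.31%) of them higher in replicate 1. Of the 8 tested members 4 were called, all higher in replicate 1. Runx2 differed by 1.27 on the log2 scale (limma adjusted p = 0.0176), Gata3 by 0.76 (limma adjusted p = 0.046), Tbx21 by 0.71 (limma adjusted p = 0.0123) and Runx3 by 0.64 (limma adjusted p = 0.0208). Runx1 (0.62), Cbfb (0.54) and Bcl11b (0.51) took the same sign without a call, and Zbtb7b was the exception at −0.18. In 6 of the 8 both libraries numbered 1 lay above both libraries numbered 3, as did 22.8% of all tested genes, and Runx3 and Zbtb7b were the other two. The median difference of the members was 0.63 against 0.01 for all tested genes. The labels do not say what the numbers stand for, so this is a contrast of pools and not of a condition.

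**Figure D3:**
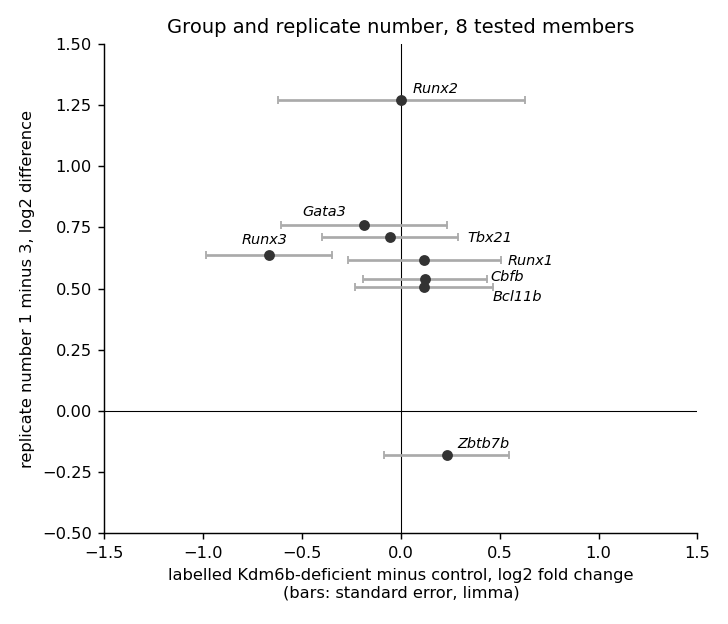
Log2 fold change between the groups (horizontal axis, bars give the limma standard error) against the log2 difference of replicate number 1 minus 3 (vertical axis) for the 8 tested members. Runx3 sits alone at −0.67 on the horizontal axis, and 7 of the 8 genes lie above 0 on the vertical axis, Runx2 highest at 1.27.

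Without a block, none of the markers of T cells, epithelium or myeloid cells was called between the groups. Their differences nevertheless ran in 1 direction within each list. All 8 of the 8 T cell markers had a negative log2 fold change between the groups (median −0.52), with 4 of the 8 lower in both libraries labelled Kdm6b-deficient against 18.6% of all tested genes. Runx3, also lower in both, lay below that median. The log2 fold change was positive for all 22 epithelial markers (median 1.25). Of the 22, 2 were higher in both libraries labelled Kdm6b-deficient, against 18.4% of all tested genes. A block on the replicate number made 19 of the 22 called higher in limma, beside 7.38% of all tested genes. It called 1 of the 8 T cell markers lower, beside 1.11%, and no myeloid marker. All 6 myeloid markers had a positive log2 fold change (median 0.46), 4 of them higher in both libraries labelled Kdm6b-deficient, and their summed level was 447.1 and 311.8 FPKM in the controls and 505.3 and 714.6 in the other libraries. Between replicate numbers 1 and 3 the T cell markers had a median difference of 0.44 and the epithelial markers one of −1.43, with 20 of the 22 called higher in replicate 3 against 8.04% of all tested genes. Cd4, whose protein the sort selected against, had 30.6 and 30.5 FPKM in the libraries numbered 1 and 10.1 and 3.17 FPKM in those numbered 3, control first, and Cd8b1, which encodes the CD8β chain that the sort also left out, was at 0 to 1.64 FPKM. The part of these cells in the member values was not tested. The members were therefore also set against T cell RNA.

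Per 100 FPKM of the 5 T cell genes (their geometric mean), Runx3 stood at 23.1 and 19.1 in the controls and at 18.6 and 16.7 in the libraries labelled Kdm6b-deficient. The groups again did not overlap, in a direction that 2.43% of all tested genes took on this scale. The margin was again narrow, at 18.6 against 19.1. Tbx21 stood at 19.3 and 14.6 in the controls and at 23.2 and 20.3 in the libraries labelled Kdm6b-deficient. Runx1, Cbfb, Zbtb7b and Bcl11b likewise lay above both controls in both of these libraries, so that 5 of the 8 tested members did, against 37.4% of all tested genes. Gata3 (11.2 and 11.1 against 16.6 and 10.3) and Runx2 overlapped. This scaling moved the median log2 fold change of all tested genes from 0.00 to 0.38. The log2 fold change of Runx3 on this scale was −0.25, against −0.67 without it, and that of Tbx21 was 0.36. Relative to the median of all genes, Runx3 was at −0.64 and the other 7 members at −0.16 to 0.21, and no member had an adjusted p under 0.05 in limma on this scale.

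A ratio of 2 genes within a library does not depend on any scaling between libraries. It can still depend on the mix of cells in a library, whose part was not tested. The ratio of Runx3 to Runx1 was 17.1 and 16.9 in the controls and 9.04 and 10.4 in the libraries labelled Kdm6b-deficient. That of Runx3 to its partner Cbfb was 4.07 and 3.52 against 2.14 and 2.2, and that of Runx3 to Tbx21 was 1.2 and 1.3 against 0.803 and 0.823. These ratios were closer within each group than the levels themselves, with no overlap between the groups. Only the ratio to Runx1 was planned among them, and those to Cbfb and Tbx21 were added with the levels already known.

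The ratio of Runx3 to Zbtb7b, the pair of factors that oppose each other, was 21.7 and 16.4 in the controls and 15.4 and 6.18 in the libraries labelled Kdm6b-deficient, where the 15.4 lay close to the lower control. Runx3 to Bcl11b (13.8 and 12.5 against 7.45 and 7.54) and Runx3 to Gata3 (2.06 and 1.72 against 1.12 and 1.61) were also lower in both. Runx3 to Runx2 overlapped, at 18.2 and 29.5 against 9.58 and 23.4. Cbfb amounted to 22.1% and 26.0% of the summed Runx RNA in the controls and to 38.5% and 40.0% in the libraries labelled Kdm6b-deficient. Runx3 made up 89.8% and 91.5% of that sum in the controls and 82.3% and 87.8% in the libraries labelled Kdm6b-deficient, and so remained the main Runx transcript in all 4.

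Beyond Runx3, the balance of Tbx21 and Gata3, at 1.72 and 1.32 in the controls and 1.40 and 1.96 in the libraries labelled Kdm6b-deficient, overlapped between the groups. With 2 libraries against 2 the exact two-sided permutation test cannot give a p below 0.333, which the 9 ratios without overlap reached (0.407 after adjustment over the 11 ratios). Those 9 include the ratio with Eomes, and all the others contain Runx3, alone or in the Runx sum. Those with Runx3 share the same Runx3 values and are not separate observations. The ratios of Runx3 to Tbx21, Gata3, Cbfb and Bcl11b, and the Runx3 share of the Runx sum, were unplanned. Their lack of overlap is therefore a description of levels already known and not a further test of Runx3. The ratio of Runx3 to a gene was lower in both libraries labelled Kdm6b-deficient for 48.7% of the 11870 other tested genes above 0 in every library, so such a ratio is frequent for Runx3. The ratio of Tbx21 to a gene was higher in both for 8.84%.

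**Figure D4:**
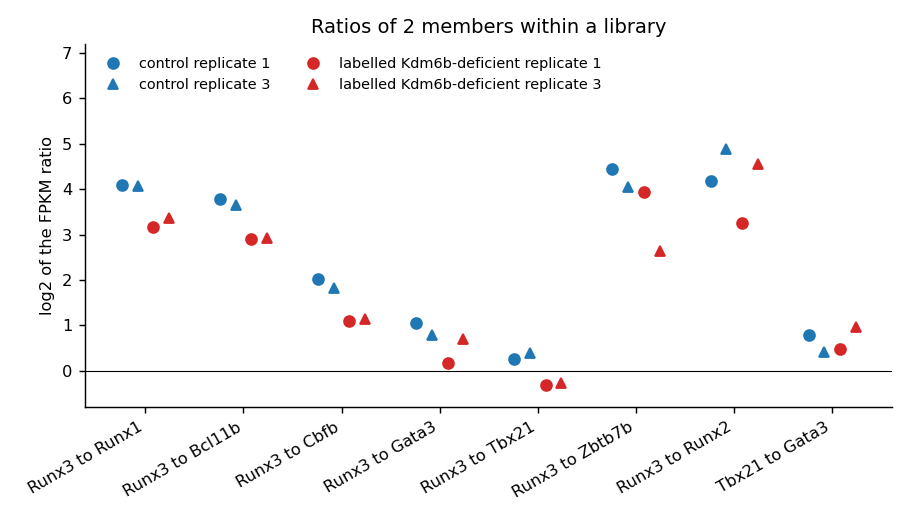
Log2 of the FPKM ratio of 2 members within each library (blue for control, red for the libraries labelled Kdm6b-deficient, circles for replicate 1, triangles for replicate 3). Red and blue symbols are apart for Runx3 against Runx1, Bcl11b, Cbfb and Tbx21, closer for Gata3 and Zbtb7b, and mixed for Runx3 to Runx2 and Tbx21 to Gata3.

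Genes whose values ran most like those of 2 members were looked up among 8916 genes with a mean of at least 5 FPKM, by the root mean square difference of centred log2 values over the 4 libraries. The nearest to Tbx21 was Wipf1 (0.016), which encodes a partner of the WASP proteins of the actin cytoskeleton, at 29.4 and 18.2 FPKM in the controls and 29.7 and 17.3 in the libraries labelled Kdm6b-deficient, followed by Hip1 and Trpv2. The nearest to Runx3 were Thada (0.0225), at 25.1 and 16.6 FPKM against 16.1 and 9.71 FPKM, Banp and Heca. With 4 points and so many genes, near matches are to be found for most patterns.

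Paralogs of the members were mostly at low levels. Of 22 other T-box, GATA, Zbtb7 and Bcl11 genes, 7 were high enough to test and none passed an adjusted p under 0.05, while 1 had an unadjusted p under 0.05. Gata4, a factor of the small intestinal epithelium, had 1.33 and 3.17 FPKM in the controls and 7.90 and 13.8 in the libraries labelled Kdm6b-deficient (log2 fold change 1.88, limma adjusted p = 0.755). Gata5, likewise known from gut epithelium, had 0.79 and 3.61 FPKM against 3.59 and 11.0 FPKM (log2 fold change 1.37). With the replicate number as a block limma called both, at adjusted p = 0.00207 and 0.0116, which makes 2 of 7 called higher beside 7.38% of all tested genes. Epithelial marker RNA, whose levels are given above, was likewise lowest in control replicate 1 and highest in the library labelled Kdm6b-deficient replicate 3, and its part in these values was not tested. The 7 had a median of 0.58, against 0.06 for the members themselves.

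Among 28 other transcription factors of T lineage decisions, 26 could be tested, none passed an adjusted p under 0.05, and 3 had an unadjusted p under 0.05 (median −0.25). Tox, a factor of CD8 and innate-like T cell development, had 101 and 89.5 FPKM in the controls and 69.9 and 61.8 in the libraries labelled Kdm6b-deficient (log2 fold change −0.52). Ikzf2, which encodes Helios, had 41.9 and 33.9 FPKM against 23.4 and 17.4 FPKM (log2 fold change −0.87), and as with Runx3 neither gene overlapped between the groups, a pattern shared by 8 of the 26 and by 18.6% of all tested genes. Id3, an inhibitor of E proteins, had 74.9 and 124 FPKM against 142 and 199 FPKM (log2 fold change 0.79). All 3 had an adjusted p of 0.755 in limma, while a block on the replicate number made all 3 called, at adjusted p = 0.0486 for Tox, 0.0119 for Ikzf2 and 0.00701 for Id3. That is 2 of 26 lower, beside 1.11% of all tested genes with the block, and 1 of 26 higher, beside 7.38%. The 20 tested of 24 cofactors of Runx, Bcl11b and GATA proteins had log2 fold changes of −0.45 to 0.43 (median −0.10), none with an unadjusted p under 0.05. The histone deacetylase gene Hdac1 (118 and 134 FPKM against 109 and 112 FPKM) and its complex partner Rbbp7 (196 and 255 FPKM against 219 and 248 FPKM) were the highest of them.

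Of 15 known targets of T-bet, Eomes and Runx3 in cytotoxic cells, 14 were tested and none was called. Both libraries labelled Kdm6b-deficient lay below both controls for 6 of the 14, against 18.6% of all tested genes, and the groups overlapped for the other 8. All 14 had a negative log2 fold change (median −0.47 against 0.00 for all tested genes), 3 with an unadjusted p under 0.05, and the T cell markers given above had a median of −0.52. Gzmb, which encodes the cytotoxic protease granzyme B, had 3380 and 2490 FPKM in the controls and 1520 and 1280 in the libraries labelled Kdm6b-deficient (log2 fold change −1.06, limma adjusted p = 0.755). The chemokine gene Ccl5 (−0.60), the protease gene Ctsw (−0.55) and the receptor gene Cd244a (−0.53) were not called either. With the replicate number as a block limma called these 4 genes, at adjusted p = 0.0024 for Gzmb, 0.0379 for Ccl5, 0.0327 for Ctsw and 0.043 for Cd244a. In all it called 5 of the 14 lower, beside 1.11% of all tested genes, and 1 of the 8 T cell markers, Cd8a, which stands in both lists. In the contrast of replicate numbers 5 of the 14 were called higher in replicate 1, against 3.31% of all tested genes, with a median of 0.58. The median of the members in that contrast was 0.63.

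Of 14 genes that ThPOK or GATA3 promote or that helper cells keep, 9 could be tested, and none had an adjusted or unadjusted p under 0.05 between the groups (median −0.51). In the contrast of replicate numbers 6 of the 9 were called, all higher in replicate 1, against 3.31% of all tested genes. In all 9 both libraries numbered 1 lay above both numbered 3, against 22.8% of all tested genes, with a median of 1.96. Cd5 had 37.0 and 37.9 FPKM in the libraries numbered 1 and 19.3 and 3.38 FPKM in those numbered 3, control first, and Cd6, a related receptor, had 43.4 and 42.5 against 17.3 and 3.84 FPKM. All tested members but Zbtb7b had a positive difference in this contrast too.

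**Figure D5:**
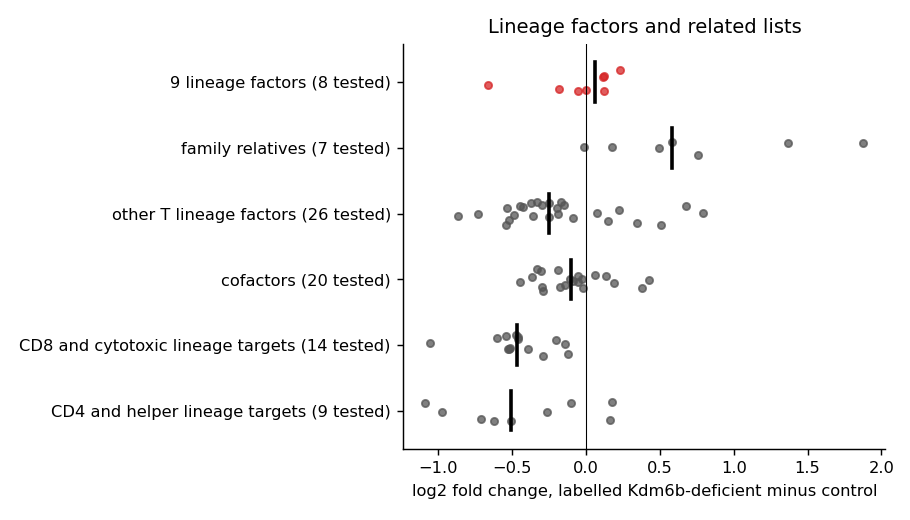
Log2 fold change (libraries labelled Kdm6b-deficient minus control) of each tested gene among the 9 lineage factors (red) and in 5 related lists (grey), with a black bar at each median and scatter within a row for legibility only. The lineage factors centre on 0.06 with Runx3 apart at −0.67, the cytotoxic targets all lie below 0, and the family relatives reach 1.88 at Gata4.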

How the data were processed

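RNA-seq of sorted TCRβ+CD8αα+ IELs from Kdm6b fl/fl and Kdm6b fl/fl-CD4Cre mice was analysed in 4 libraries, 2 per group. The deposited values are FPKM per gene. The authors mapped reads by HISAT and Bowtie2 on mm10, with RSEM for quantification, and their processing notes give Bowtie2 2.2.5 and RSEM 1.2.8 with the builds mm10 and GRCm38.p5. Read totals are unknown. Relative depth came from the smallest steps of FPKM times transcript length. RefSeq (GRCm38.p6) gave symbols for 18467 identifiers, gene spans and promoters for all 9 members.

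Values were tested as log2(FPKM + 1), unscaled, in genes that reached 1 FPKM in 2 libraries, by limma 3.58.1 in R 4.3.3 (lmFit, then eBayes with the trend option), with Benjamini-Hochberg adjustment over all genes tested. The model was tested on simulated data. Ratios were compared by exact permutation over libraries (scipy 1.17.1). Of each list, the text names at most 4 genes per direction with an adjusted p under 0.05, without or with the replicate number as a block, taken by the size of their log2 fold change, or otherwise the 2 highest in FPKM. Gzmb and the other names follow this rule, while Cd4 and Cd8b1 are markers. Alternatives were the pseudocount, the filter, 3 scalings, the trend, the block and leaving out each library. Combinations with the block, 5 of the 11 ratios and the epithelial sum without Reg3g were chosen after the values were seen. Members and lists were chosen with earlier results of these data known. Protein sequences were not used here, and single-cell and chromatin data were not analysed here.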

Additional observations from a re-analysis of the deposited data

How the results depend on the processing

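No tested member passed an adjusted p under 0.05 in limma without a block, whatever the pseudocount, filter, scaling, trend or library left out. The labels number the libraries 1 and 3 in both groups without saying that a number marks a shared preparation, and deviations of same-numbered libraries correlated at 0.56 across genes (Spearman 0.542). With the replicate number as a block the count of called genes went from 0 to 1019 (8.49%), of which 133 (1.11%) were lower. It was 1067 with median-of-ratios scaling and the block, 2715 with T cell scaling and the block and 1066 with a pseudocount of 0.1 and the block. Of the members, 1 was then called, Runx3, at −0.67 (limma adjusted p = 0.0201), −0.68 with median-of-ratios scaling (limma adjusted p = 0.0162) and −0.68 with a pseudocount of 0.1 (limma adjusted p = 0.0172), and 0 were called with T cell scaling and the block, where Runx3 was at −0.25. Over the lists the block called 2 family relatives, 3 T lineage factors, 5 cytotoxic targets, 0 cofactors and 0 helper targets, and of the markers 19 of 22 epithelial ones higher and 1 of 8 T cell ones lower.

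Genes with a log2 fold change beyond 1 numbered 797 (6.64%), 1381 with a pseudocount of 0.1 with or without the block, 1451 with 0.01, 1488 with T cell scaling with or without the block, and 364 to 1577 with 1 library left out, lowest without control replicate 1 and highest without the library labelled Kdm6b-deficient replicate 1. Among the members, the sign reversed for Tbx21 with T cell scaling (0.36, with or without the block), for Gata3 likewise (0.23), for Runx1 with quantile normalization (−0.015), and for Runx2 with pseudocounts of 0.1 (−0.041, also with the block) and 0.01 (−0.048), median-of-ratios scaling (−0.008, also with the block) and quantile normalization (−0.16). The cause was not tested. Runx3 kept its sign in all 16 alternatives. With a library left out, values ranged from −0.44 to 0.33 for Tbx21, −0.28 to 0.52 for Runx1, −0.78 to 0.79 for Runx2, −1.04 to −0.30 for Runx3, −0.26 to 0.50 for Cbfb, −0.011 to 0.47 for Zbtb7b, −0.80 to 0.43 for Gata3 and −0.22 to 0.45 for Bcl11b. The difference between the groups in the log2 ratio of Runx3 to Runx2 then ranged from −1.28 to 0.014, that of Tbx21 to Gata3 from −0.11 to 0.38, that of Runx3 to Zbtb7b from −1.61 without the library labelled Kdm6b-deficient replicate 1 to −0.29 without replicate 3 of that group, and that of Tbx21 to Eomes from 2.51 to 0.48 in the same order. The difference for Tbx21 to Eomes was 1.49 with all libraries, and 0.044 with a pseudocount of 1.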
